A study of Mus musculus with 30 samples.

Results

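The genes described here are those that encode the chains of the collagens in the mouse. They were taken as every gene whose symbol is Col, a number, the letter a and a second number, which gave 42 genes with 82 probe sets among the 18193 genes that the array measures through a probe set of a single symbol. Each gene was represented by its brightest probe set over the 30 arrays, and 35 of the 42 lay above the limit of the dimmest 40% of all probe sets. The 7 genes below that limit, Col24a1, Col4a3, Col4a4, Col6a5, Col20a1, Col10a1 and Col17a1, entered no test across probe sets. The samples were whole hypothalami of newborn female C57BL/6J mice injected subcutaneously on the day of birth with estradiol benzoate (EB, an estrogen ester given at 7.5 μg in 20 μl of peanut oil) or with the oil alone (vehicle), and taken 1, 3, 6, 12 or 24 h later. Each of the 10 groups held 3 mice, and each mouse had its own array. All mice were otherwise untreated and of the same strain and sex. The dose and the injection on the day of birth limit the groups to 1 dose and 1 age at treatment.

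Collagens are triple helices of 3 chains that are secreted and assembled outside the cell. The fibrillar collagens form the banded fibrils of connective tissue, the type IV chains form the network of basement membranes, and type VI chains form beaded microfibrils. In the brain, the tissue itself holds little fibrillar collagen, which lies mainly in the meninges and around larger vessels, whereas type IV collagen lines every capillary.

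At 24 h after the injection, 6 of the 35 genes tested were lower in EB-treated than in vehicle-treated mice and none was higher (limma, adjusted p under 0.05 over all probe sets). These were 17.1% of the collagen genes tested, against 2.19% of all 27022 probe sets tested that were lower and 0.588% that were higher. The 6 genes were Col1a1, Col1a2 and Col3a1 of the fibrillar class, Col6a1 and Col6a2 of type VI and Col8a1 of the short chain network class. The two-way analysis named in the methods, run on the signals as deposited, called none of these genes at 24 h. No chain of the basement membrane class passed by its brightest probe set. The changes stood beside a fall of 17 of 18 markers of the fibroblasts of the brain's inner meninges. That marker list, like the collagen genes, was chosen with earlier results of these data known, so its count is not independent support.

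The sequences just upstream of the gene starts are shown for 3 genes that fell at 24 h and for 1 basement membrane chain that did not pass, so that genes that moved and a gene that did not pass can be read side by side. They are from RefSeq in build GRCm38.p6, on the strand of the gene, and end at the base before the annotated gene start. Both strands were searched for 3 common core promoter motifs. Capitals show where one was found, and the matches in these windows share no base. The TATA motif was read as TATAAA. The second motif was read as CCAAT. The GC box was read as GGGCGG.
Col1a2, chr6:4505368-4505617, plus strand: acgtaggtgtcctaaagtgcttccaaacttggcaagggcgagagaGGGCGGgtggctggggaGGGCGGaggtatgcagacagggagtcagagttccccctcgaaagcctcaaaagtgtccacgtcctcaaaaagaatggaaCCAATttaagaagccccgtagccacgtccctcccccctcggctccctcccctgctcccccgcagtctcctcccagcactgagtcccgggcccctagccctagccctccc
Col3a1, chr1:45311288-45311537, plus strand: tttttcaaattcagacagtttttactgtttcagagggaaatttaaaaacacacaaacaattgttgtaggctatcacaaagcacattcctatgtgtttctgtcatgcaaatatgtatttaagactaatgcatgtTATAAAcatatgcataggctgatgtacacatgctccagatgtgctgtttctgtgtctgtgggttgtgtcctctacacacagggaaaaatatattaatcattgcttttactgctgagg
Col6a1, chr10:76726045-76726294, minus strand: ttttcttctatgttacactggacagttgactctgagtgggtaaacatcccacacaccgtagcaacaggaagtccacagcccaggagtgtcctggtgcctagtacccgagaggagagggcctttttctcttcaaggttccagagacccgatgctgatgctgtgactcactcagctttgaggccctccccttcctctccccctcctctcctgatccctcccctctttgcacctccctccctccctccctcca
Col4a5, chrX:141475169-141475369, plus strand: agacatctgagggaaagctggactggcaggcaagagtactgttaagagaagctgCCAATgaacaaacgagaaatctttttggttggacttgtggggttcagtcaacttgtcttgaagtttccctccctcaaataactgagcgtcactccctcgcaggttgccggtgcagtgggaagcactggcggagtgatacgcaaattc
The Col1a2 window held 2 GC boxes and 1 CCAAT box, the Col3a1 window 1 TATA box, the Col4a5 window 1 CCAAT box, and the Col6a1 window none of these letters. GC content was 62.0% for Col1a2 and 35.2% for Col3a1, so that these genes of the same chain class had different base compositions here. Over windows of 300 bases that also take in the start of the gene, the table held 36 windows for 33 of the 42 genes. A GC box was in 61.1% of these against 35.7% of all 32851 windows, a CCAAT box in 36.1% against 37.4%, and a TATA box in 13.9% against 13.6%. The palindromic estrogen response element, which the estrogen receptors bind as dimers, was read as GGTCA and TGACC with 3 bases of any kind between them. It was in 0 of the 36 collagen windows and in 0.0700% of all windows. Because only 23 of the 32851 windows held it, 0 of 36 cannot set the collagen genes apart from other genes. Of the 5 genes with a window that fell at 24 h, 3 held a GC box (Col1a2, Col6a2 and Col8a1), 1 a CCAAT box and 1 a TATA box. These matches only describe the letters in the windows.

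Col1a2 encodes the second chain of type I collagen, the main fibrillar collagen of connective tissue. Its scaled signal (gene identifier 12843, signals of each array scaled to a common median) was 89.9, 92.02 and 476 in the EB-treated mice at 24 h, against 874, 839 and 684 in the vehicle-treated mice. All EB values were lower than all vehicle values, and the third EB mouse stood between its group and the vehicle group. The log2 fold change was −2.33 ± 0.42 (SE), or 0.199 times the vehicle level, with an adjusted p of 0.00197 (limma). Without EB replicate 3 it was −3.13.

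Col3a1, the single chain of type III collagen, which accompanies type I in soft connective tissue and vessel walls, had the largest fall among the 35 genes tested. Its signal (gene identifier 12825) was 35.8, 66.9 and 392 in EB-treated mice at 24 h, against 717, 714 and 562 in vehicle-treated mice. The groups did not overlap, and again the third EB mouse was the nearest to the vehicle mice. The log2 fold change was −2.75 ± 0.47, with an adjusted p of 0.00118 in the limma fit. It was −3.75 without EB replicate 3 and −2.03 without EB replicate 1, and passed in both runs.

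Col1a1, the first chain of type I collagen, was measured at 15.1, 11.5 and 57.6 in EB-treated mice at 24 h (gene identifier 12842), against 91.7, 100.4 and 60.3 in vehicle-treated mice. The highest EB value lay just under the lowest vehicle value. The log2 fold change was −1.93 ± 0.41 (limma, adjusted p = 0.00816), and the call was lost without EB replicate 1 (adjusted p = 0.0729) or without EB replicate 2 (adjusted p = 0.0920). Without EB replicate 3 the log2 fold change was −2.64.

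The falls of Col1a1, Col1a2, Col3a1 and Col6a2 were seen in second probe sets of the same genes. The dimmer probe sets of Col1a1, Col1a2 and Col3a1 had log2 fold changes of −2.96, −2.27 and −2.39 at 24 h, with adjusted p-values from 0.00241 to 0.00462 in limma. Of the 40 probe sets that were not the brightest of their gene, 18 lay above the limit, and 5 of these were lower in EB-treated mice. The other 2 were of Col6a2 (−0.95, adjusted p = 0.00943) and of Col4a1 (−0.73, adjusted p = 0.0153). The second Col8a1 probe set above the limit had −0.96 ± 0.33 with overlapping groups and did not pass (limma, adjusted p = 0.131). Col6a1 had only 1 probe set. Probe sets of a gene share its transcripts and are not independent.

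The other fibrillar chains had smaller values. Col5a1 and Col5a2, chains of type V collagen, which takes part in the start of type I fibrils, did not pass, although their groups did not overlap. Col5a1 was at 47.3, 32.6 and 56.3 in EB-treated mice at 24 h, against 68.0, 63.8 and 73.9 in vehicle-treated mice (log2 fold change −0.63 ± 0.21, limma adjusted p = 0.100). Col5a2 was at 169.0, 101.4 and 140.9 in EB-treated mice, against 228, 203 and 170.0 in vehicle-treated mice (−0.57 ± 0.22, limma adjusted p = 0.179). Col5a2 is the annotated neighbour of Col3a1 on chromosome 1, and the log2 fold changes of these neighbours at 24 h were −0.57 and −2.75. Without EB replicate 3, Col5a1 passed at −0.80 (adjusted p = 0.0462). Col2a1, Col11a1 and Col11a2, which are chains of cartilage fibrils, had log2 fold changes of −0.34, −0.15 and −0.20, and Col5a3 and Col27a1 of 0.16 and 0.09, none of which passed.

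**Figure D1:**
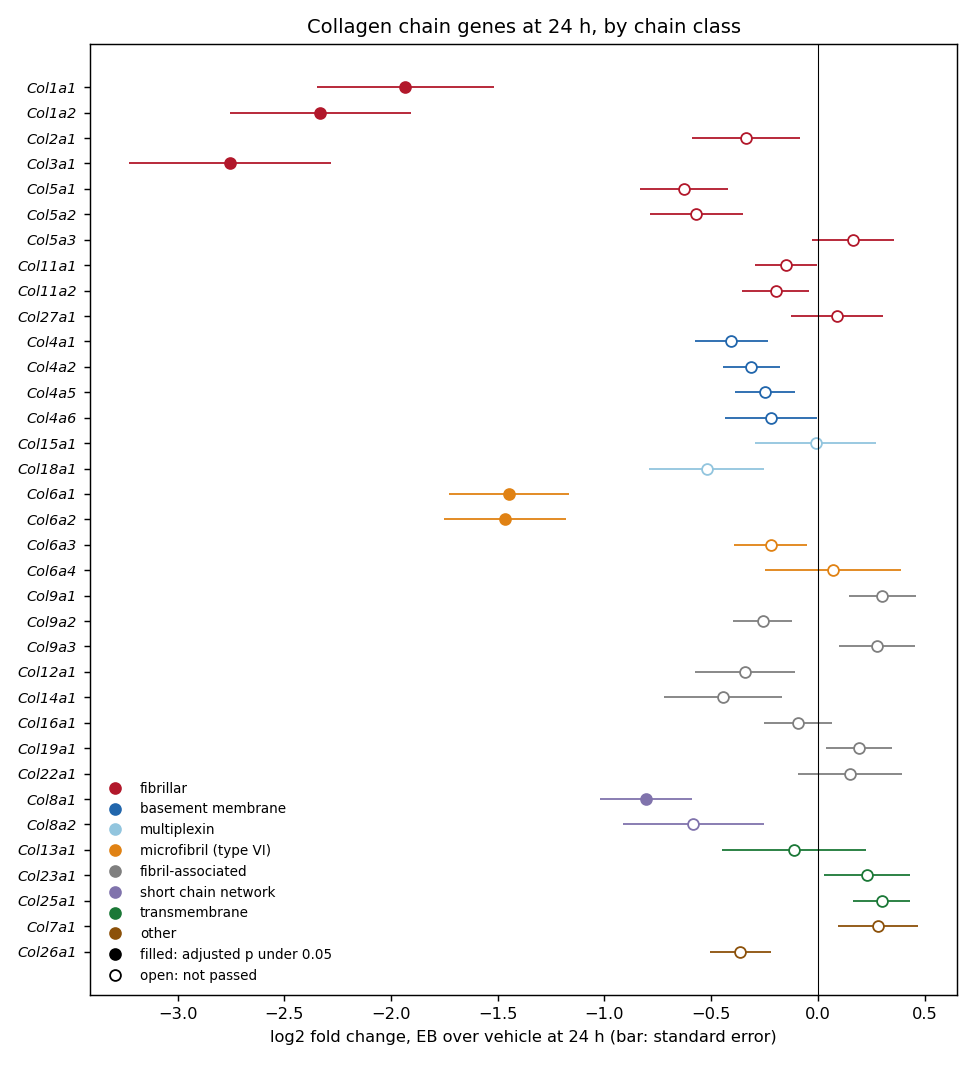
Log2 fold change of EB over vehicle at 24 h (horizontal axis, bar: standard error of the limma fit) for the 35 collagen chain genes tested, coloured by chain class, with filled points where the adjusted p was under 0.05. The 6 filled points lie between −2.75 (Col3a1) and −0.81 (Col8a1), and the 4 basement membrane chains lie between −0.40 and −0.22 with open points.

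Type VI collagen is assembled from an α1, an α2 and a longer chain, and its genes did not move alike. Col6a1 (gene identifier 12833) was at 37.6, 36.5 and 83.9 in EB-treated mice at 24 h, against 124, 168 and 112 in vehicle-treated mice (log2 fold change −1.45 ± 0.28, limma adjusted p = 0.00350). Col6a2 (gene identifier 12834) was at 49.4, 61.3 and 146 in EB-treated mice, against 216, 233 and 185 in vehicle-treated mice (−1.47 ± 0.28, limma adjusted p = 0.00351). For both genes every EB mouse was below every vehicle mouse.

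Col6a3, the usual longer chain, was at 143, 110 and 107 in EB-treated mice at 24 h, against 154, 143 and 121 in vehicle-treated mice. Its groups overlapped and it did not pass (−0.22 ± 0.17, limma adjusted p = 0.582). Within each array, the log2 signal of Col6a1 minus that of Col6a3 differed by −1.23 between EB-treated and vehicle-treated mice at 24 h, and that of Col6a2 minus Col6a3 by −1.24. These differences did not overlap between the groups (exact permutation test over 3 against 3 mice, two-sided p = 0.1 for each, the smallest the design allows), and the 4 pairs of genes compared in this way were chosen after the values were seen. Col6a4 had a log2 fold change of 0.07 and Col6a5 lay below the limit. The Col6a2 call was lost without EB replicate 1 (−1.15, adjusted p = 0.0535).

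Col8a1 encodes a chain of the short network collagen of endothelial and corneal membranes. It was at 48.8, 44.9 and 57.5 in EB-treated mice at 24 h (gene identifier 12837), against 84.3, 103 and 77.6 in vehicle-treated mice. Unlike in Col1a1, Col1a2 and Col3a1, EB replicate 3 lay close to the other EB mice. The log2 fold change was −0.81 ± 0.22 (limma, adjusted p = 0.0347), which was near the threshold: the call was lost without any 1 of the other 5 mice at 24 h (adjusted p up to 0.169), and held only without EB replicate 3 (0.0364). Its partner chain Col8a2 had −0.58 ± 0.33 and did not pass (adjusted p = 0.412).

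Among the basement membrane chains, Col4a1 and Col4a2 encode the main type IV network. Col4a1 was at 387, 425 and 497 in EB-treated mice at 24 h, against 640, 552 and 537 in vehicle-treated mice (log2 fold change −0.40 ± 0.17, limma adjusted p = 0.236). Col4a2 was at 303, 269.5 and 334 in EB-treated mice, against 359, 388 and 375 in vehicle-treated mice (−0.31 ± 0.13, limma adjusted p = 0.242). In both genes the 3 EB mice were below the 3 vehicle mice in scaled signal. The differences of these brightest probe sets did not pass the threshold across all probe sets. The dimmer Col4a1 probe set did pass, at −0.73 with groups that did not overlap (limma, adjusted p = 0.0153). The order of the mice depends on the scaling, without which the median of all probe sets at 24 h was 0.22 in place of −0.01. The starts of Col4a1 and Col4a2 lie against each other on opposite strands, and their promoter windows share 78 bases.

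Col4a5, a chain of the more restricted type IV networks, was at 198, 190.1 and 161 in EB-treated mice at 24 h, against 216, 229 and 205 in vehicle-treated mice (−0.25 ± 0.14, limma adjusted p = 0.417). Col4a6 had −0.22 ± 0.22 with overlapping groups, and Col4a3 and Col4a4 lay below the limit. The multiplexins, collagens of the basement membrane zone, did not pass either. Col18a1, the source of endostatin, was at 49.96, 63.3 and 90.7 in EB-treated mice, against 92.004, 84.1 and 109 in vehicle-treated mice (−0.52 ± 0.27, limma adjusted p = 0.357). Col15a1 was at 25.6, 33.6 and 28.1 in EB-treated mice, against 34.9, 29.4 and 24.1 in vehicle-treated mice, with a log2 fold change of −0.01 ± 0.28 whose sign turned in 4 of the alternative settings.

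Set side by side at 24 h, 3 of 10 fibrillar genes and 0 of 4 basement membrane genes passed, and 5 and 2 of them had an unadjusted p under 0.05, as had 15.7% of all probe sets. The dimmer probe set of Col4a1, which is not in this count, was lower. The median log2 fold change was −0.45 over the fibrillar and −0.28 over the basement membrane genes tested, against −0.01 over all probe sets. Without the scaling of arrays, these medians were −0.23 over the fibrillar genes, −0.054 over the basement membrane genes and 0.22 over all probe sets. With the genes below the limit included, the medians were −0.34 over 11 fibrillar and −0.23 over 6 basement membrane genes. The median over all 42 collagen genes was −0.22.

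In each array, the mean of the 10 fibrillar chains (log2, centred on all 30 arrays) was −1.20, −1.16 and −0.43 in EB-treated mice at 24 h, against 0.01, −0.06 and −0.13 in vehicle-treated mice. For the 4 basement membrane chains it was −0.42, −0.57 and −0.52 in EB-treated mice, against −0.19, −0.12 and −0.31 in vehicle-treated mice. The third EB mouse thus stood apart in the fibrillar mean and not in the basement membrane mean. The fibrillar mean holds Col1a1, Col1a2 and Col3a1, with log2 fold changes of −1.93, −2.33 and −2.75. Its other chains lay between −0.63 (Col5a1) and 0.16 (Col5a3), so the mean does not describe the class evenly. The basement membrane chains tested lay between −0.40 and −0.22. Within each array, Col1a2 minus Col4a1 differed by −1.93 and Col3a1 minus Col4a1 by −2.35 on the log2 scale between EB-treated and vehicle-treated mice at 24 h (exact permutation test, two-sided p = 0.1 for each, the smallest possible), again for 2 of the 4 pairs chosen after the values were seen.

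**Figure D2:**
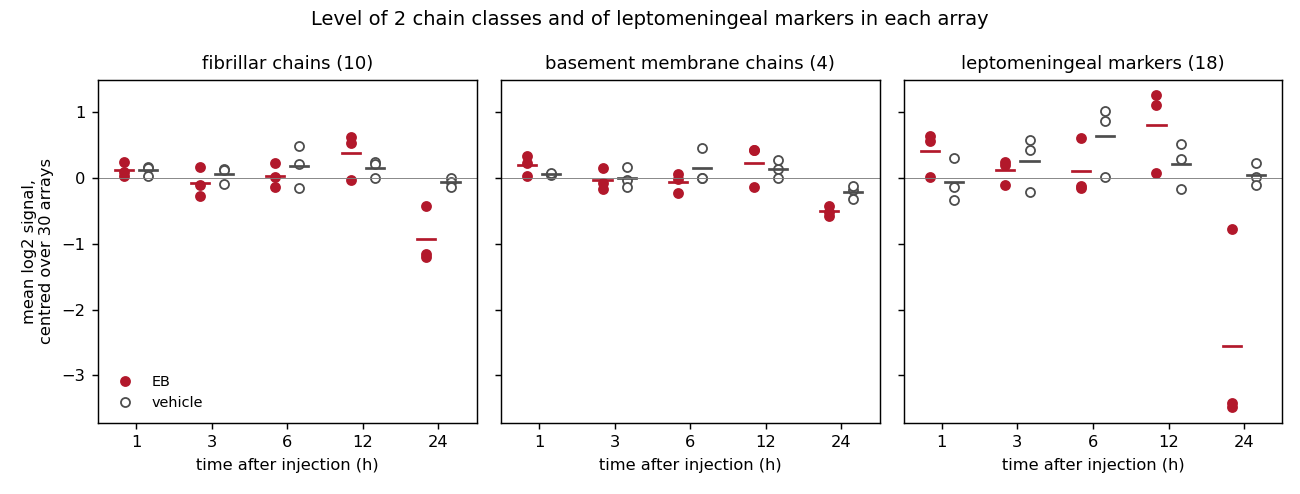
Mean log2 signal of the 10 fibrillar chains, the 4 basement membrane chains and the 18 leptomeningeal markers in each array (points, vertical axis centred on the mean of 30 arrays) by hours after injection, EB filled and vehicle open, with bars at the group means. At 24 h the EB mice sit at −1.20, −1.16 and −0.43 for the fibrillar chains and at −3.41, −3.48 and −0.77 for the leptomeningeal markers, with replicate 3 highest in both. The fibrillar mean holds Col1a1, Col1a2 and Col3a1, which had the largest falls of the class.

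The markers of other cells moved at the same time. Of 18 markers of leptomeningeal fibroblasts, the collagen-making cells of the inner meninges, 17 were lower in EB-treated mice at 24 h, with a median log2 fold change of −2.57. This list holds no collagen chain. Like the other marker lists, it was chosen with earlier results of these data known. Of all probe sets, 2.19% were called lower at 24 h and 0.588% higher. The summed signal of the 18 markers was 375 to 3896 in EB-treated mice, against 7497 to 8978 in vehicle-treated mice. No marker of the list lay below the limit over all arrays. Most of this sum was the signal of Ptgds, a prostaglandin D synthase, which was at 135, 116 and 2923 in EB-treated mice, against 7053, 6303 and 5980 in vehicle-treated mice. Without it, the sum of the other 17 was 257 to 973 in EB-treated mice, against 1516 to 1925 in vehicle-treated mice. Among its defining genes, Slc6a13 was at 3.43, 2.60 and 35.4 in EB-treated mice, against 102, 70.2 and 87.1 in vehicle-treated mice. As in Col1a2 and Col3a1, EB replicate 3 was the highest of its group. Of the markers of endothelial cells, 0 of 13 tested passed (median −0.14, summed signal 1187 to 1370 in EB-treated and 1384 to 1629 in vehicle-treated mice), and of mural cells 0 of 9 (median −0.17, 1174 to 1429 against 1426 to 1493). Of 9 microglia and macrophage markers 3 were lower (Mrc1, Lyve1 and Pf4), and of 9 measured markers of cartilage and bone 8 lay below the limit. Of the brain's own cells, 1 of 9 astrocyte and radial glia markers was lower (Fabp7, limma adjusted p = 0.0324), with a median of −0.33 and a summed signal of 12209 to 13437 in EB-treated mice, against 14983 to 15850 in vehicle-treated mice. Of the pan-neuronal markers 1 of 10 was lower (Stmn2, limma adjusted p = 0.00885), with a median of −0.13 and a summed signal of 27818 to 29471 in EB-treated mice, against 31505 to 33326 in vehicle-treated mice. The summed scaled signals of both lists, and of the endothelial list, thus did not overlap between the groups. Those of the microglia and macrophage list did not either (717 to 780 in EB-treated and 959 to 1019 in vehicle-treated mice). Of 5 choroid plexus markers tested 0 passed, and the summed signals of the list did not overlap (156 to 193 against 199 to 228). The sums take in every marker with a probe set, also those below the limit. These were 14 endothelial, 11 mural, 10 microglia and macrophage, 8 choroid plexus and 11 hypothalamic markers. The sums of the mural, cartilage and bone, and hypothalamic lists overlapped. All these sums rest on the scaling of arrays. Without scaling, the median log2 fold change of all probe sets at 24 h was 0.22 in place of −0.01. Small differences in the sums, such as those of the neuronal and endothelial lists, thus cannot be told apart from the scaling. Of all single probe sets, 14.3% were wholly lower in EB-treated mice at 24 h. The part of these other cells, the meningeal tissue among them, in the collagen values was not tested, and in these bulk samples fewer cells of a type and less RNA per cell cannot be told apart. None of the 10 hypothalamic markers tested, Avp, Oxt and Pomc among the list, passed at 24 h.

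The remaining collagen classes had no gene that passed at 24 h. The 8 fibril-associated chains tested, which decorate the surface of fibrils, had log2 fold changes from −0.44 (Col14a1) to 0.30 (Col9a1), with a median of 0.03. Col12a1, a chain of fibrils under tension, had −0.34 ± 0.23, and Col9a2 −0.26 ± 0.14 with groups that did not overlap. Of the transmembrane collagens, Col25a1, whose neuronal product is found with amyloid plaques in humans, was at 386, 406 and 445 in EB-treated mice at 24 h, against 367, 314 and 325 in vehicle-treated mice. Every EB mouse was above every vehicle mouse, but the gene did not pass (0.30 ± 0.13, limma adjusted p = 0.258). Col23a1, also a membrane collagen, had 0.23 ± 0.20 with groups that did not overlap. Its other probe sets above the limit had 0.08 and −0.10 with overlapping groups. Col13a1 had −0.11 ± 0.34. Col26a1 had −0.36 ± 0.14 (limma adjusted p = 0.191) and Col7a1, the chain of anchoring fibrils in skin, 0.28 ± 0.19.

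Counted by whether the groups of 3 overlapped at all, 15 of the 35 genes were wholly lower and 2 wholly higher in EB-treated mice at 24 h, where 14.3% of all probe sets were wholly lower and 9.82% wholly higher. The 15 comprised 6 fibrillar, 3 basement membrane and 2 type VI genes, both short chain genes, Col9a2 and Col26a1. By the ratio of mean signals, 5 of the 35 were at 0.5 or less, against 0.537% of all probe sets, and 0 were at 2 or more, against 0.0962%. The ratio of EB over vehicle means at 24 h was 0.275 for Col1a2, 0.248 for Col3a1 and 0.405 for Col6a2, which is nearer to 1 than the fitted folds because the third EB mouse weighs more in a linear mean.

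**Figure D3:**
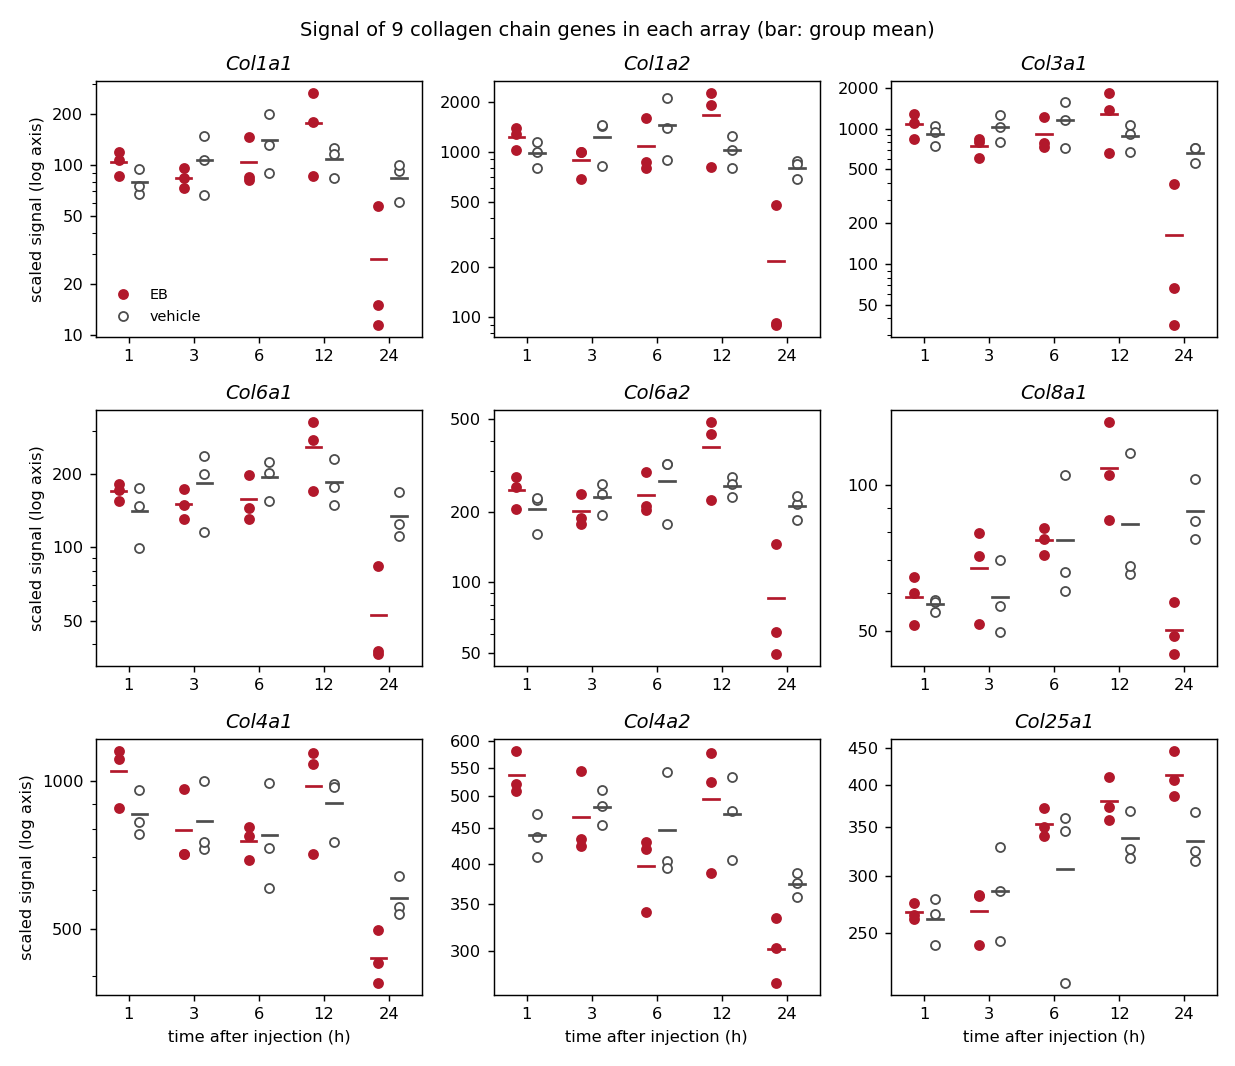
Scaled signal of 9 collagen genes in each array (logarithmic vertical axis) by hours after injection, EB filled and vehicle open, with bars at the group means. For Col1a2 the EB mice reach 2273, 809 and 1913 at 12 h and 89.9, 92.02 and 476 at 24 h, while the vehicle mice stay between 684 and 2098 at all times.

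At the earlier times no collagen gene passed. At 1 h, 0 of 35 passed in limma and 2 had an unadjusted p under 0.05 (8.63% of all probe sets had such a p, and 0.0037% were called lower and 0% higher). These were Col2a1, at 56.6, 47.9 and 46.7 in EB-treated mice against 82.2, 115 and 70.2 in vehicle-treated mice (log2 fold change −0.79 ± 0.25, adjusted p = 0.343), and Col4a2 (0.29 ± 0.13, adjusted p = 0.559). At 3 h, 0 passed and 1, Col9a2 (0.29 ± 0.14), had an unadjusted p under 0.05, where 12.8% of all probe sets had such a p, 0.377% were called lower and 0.0962% higher. At 6 h, 0 passed and 1, Col4a5 (−0.32 ± 0.14), had an unadjusted p under 0.05, as had 6.01% of all probe sets, and 0% were called in either direction. At 12 h, 0 passed and 3 had an unadjusted p under 0.05, namely Col5a2 (0.50 ± 0.22), Col4a5 (0.35 ± 0.14) and Col23a1 (0.44 ± 0.20), against 6.56% of all probe sets, again with 0% called. The two-way analysis named in the methods, with its Bonferroni correction over the times alone, gave 1 gene at 1 h, 0 at 3 h and 6 h, 3 at 12 h and 0 at 24 h. Of all probe sets it called 1.19% at 1 h and 2.59% at 3 h. Its share was 0.278% for the 6 h mice, 9.17% for those of 12 h and 2.67% for those of 24 h. The unscaled signals it used were brightest in the 12 h arrays. Averaged over the 5 times, 0 of 35 passed in limma, 4 had an unadjusted p under 0.05 (Col1a2, Col2a1, Col3a1 and Col25a1), as had 8.67% of all probe sets, and 0.0555% of all probe sets were called lower and 0.0185% higher.

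The 12 h values of the genes that fell at 24 h were spread in the EB mice. Col1a2 was at 2273, 809 and 1913 in EB-treated mice at 12 h, against 1250, 1030 and 799 in vehicle-treated mice. Col3a1 was at 1838, 655 and 1376 in EB-treated mice, against 1065, 909 and 672 in vehicle-treated mice. In both genes, EB replicates 1 and 3 were above all vehicle mice and EB replicate 2 was below at least 2 of them. The log2 fold changes at 12 h were 0.59 ± 0.42 for Col1a2 and 0.45 ± 0.47 for Col3a1 and did not pass. The mean of the leptomeningeal markers at 12 h had the same mice highest, with 1.26, 0.07 and 1.11 in EB-treated mice against 0.52, 0.30 and −0.17 in vehicle-treated mice.

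**Figure D4:**
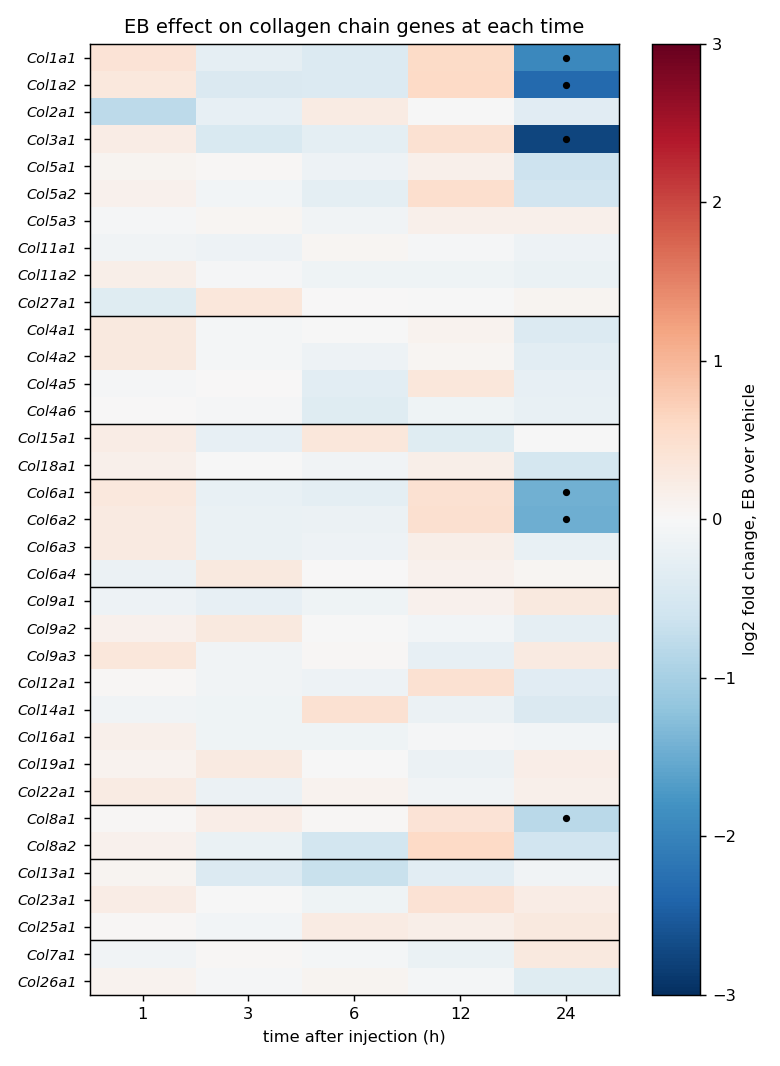
Log2 fold change of EB over vehicle for the 35 collagen chain genes tested (rows, grouped by chain class in the order fibrillar, basement membrane, multiplexin, type VI, fibril-associated, short chain, transmembrane and other) at each time (columns, hours after injection), with a dot where the adjusted p was under 0.05. The 6 dots all lie in the 24 h column.

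Whether the EB effect differed between the times was tested by an F test of the limma fit. It passed for 4 of 35 collagen genes (11.4%), against 0.958% of all probe sets. These were Col1a2 and Col3a1 (adjusted p = 0.0421 for each) and Col6a1 and Col6a2 (0.0467 and 0.0471). All lay close to the threshold, and in 18 of the 30 runs that left out 1 array at most 2 of the 35 genes passed. The 13 runs in which 0 passed were those without EB replicate 1 or 2 at 24 h, any 1 vehicle mouse at 24 h, EB replicate 1 or 3 at 12 h, vehicle replicate 3 at 12 h, vehicle replicate 3 at 6 h, EB replicate 3 at 3 h, EB replicate 1 or 3 at 1 h, or vehicle replicate 3 at 1 h. In 3 runs 1 passed (without vehicle replicate 1 or 2 at 1 h, or vehicle replicate 1 at 12 h), and in 2 runs 2 did (without EB replicate 1 or vehicle replicate 1 at 3 h). Without EB replicate 3 at 24 h, 5 passed, and without EB replicate 2 at 12 h, 6 did. The dimmer probe sets of Col1a2, Col3a1 and Col6a2 above the limit did not pass this F test (adjusted p = 0.0647, 0.0734 and 0.0600).

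Within the EB-treated mice, the signal differed over the 5 times for 18 of 35 collagen genes (51.4%, against 22.9% of all probe sets). Of these 18, 15 had their lowest group mean at 24 h and 13 their highest at 12 h. The exceptions at the low end were Col9a1 and Col25a1, lowest at 1 h, and Col11a1, lowest at 6 h. Col1a2 averaged 1230 ± 187, 894 ± 183, 1082 ± 441, 1665 ± 763 and 219 ± 222 at 1, 3, 6, 12 and 24 h in EB-treated mice (SD, n = 3 each), so that the highest mean was 7.59 times the lowest. Basement membrane chains were among the 18, with 3 of 4 passing. Col4a1 averaged 436 ± 56.0 at 24 h, against 1048 ± 146 at 1 h, in EB-treated mice, 2.40 times between the highest and the lowest mean. Col25a1 went the other way in EB-treated mice, with means of 412 ± 30.4 at 24 h, against 267 ± 7.15 at 1 h.

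In vehicle-treated mice the signal differed over the times for 9 of 35 collagen genes (25.7%, against 34.1% of all probe sets). Only 3 genes, Col11a1, Col26a1 and Col4a1, were among those of both treatments. In vehicle-treated mice 5 of the 9 had their highest mean at 12 h, in the arrays that were brightest as deposited. Of the 9, Col4a1 alone had its lowest mean at 24 h (576 ± 55.4, against 903 ± 133 at 12 h). Col2a1 was lowest at 6 h with 42.5 ± 0.403, against 89.0 ± 23.0 at 1 h, and Col11a1 had 136 ± 13.9 at 6 h, against 229 ± 10.4 at 1 h. The count over time in vehicle-treated mice was 5 without vehicle replicate 1 at 12 h and 4 without vehicle replicate 3 at 12 h. Of the genes that fell with EB at 24 h, none was among the 9. Col1a2 averaged 983 ± 176, 1231 ± 359, 1456 ± 610, 1027 ± 225 and 799 ± 101 in vehicle-treated mice at the 5 times, 1.82 times between the highest and the lowest mean (limma, adjusted p = 0.519).

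The genes that act on collagen chains were described from a list of 52, of which 46 had a probe set and 38 lay above the limit. At 24 h 5 of the 38 were lower in EB-treated mice and 0 higher, against 2.19% lower and 0.588% higher of all probe sets, with a median log2 fold change of −0.15. None of the 16 enzymes and chaperones of chain hydroxylation and folding passed, among them P4ha1 (0.30 ± 0.21), a prolyl hydroxylase, and Serpinh1 (−0.25 ± 0.18), the collagen chaperone. Of 7 genes of propeptide cleavage and crosslinking 2 passed. Pcolce, which enhances cleavage of the C-terminal propeptide, was at 29.99, 27.0 and 66.5 in EB-treated mice, against 130, 101 and 121 in vehicle-treated mice (−1.63 ± 0.30, limma adjusted p = 0.00241). Lox, which crosslinks collagen, was at 19.0, 1.59 and 44.0 in EB-treated mice, against 81.6, 64.5 and 58.5 in vehicle-treated mice (−2.62 ± 0.62, limma adjusted p = 0.0175). In both, as in Col1a2, the third EB mouse was the highest of its group.

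Of 9 genes of collagen breakdown, Mmp2, a gelatinase (−0.75 ± 0.16, limma adjusted p = 0.00892), and Mrc2, which takes up collagen fragments (−1.31 ± 0.24, adjusted p = 0.00229), were lower. Of 6 collagen receptors, Ddr2, which binds fibrillar collagen, was lower (−0.90 ± 0.22, limma adjusted p = 0.0193), whereas Ddr1, its epithelial and glial counterpart, had −0.09 ± 0.08 and Adgrg1, a receptor of Col3a1 in the developing cortex, had −0.27 ± 0.12 without passing. At 1, 6 and 12 h none of the 38 passed, and at 3 h 1 was higher. The count at 24 h was 3 without vehicle replicate 1 or 3 and 2 without EB replicate 2.

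A control of RNA composition also differed between the groups at 24 h. The 3′ probe set for 18S ribosomal RNA was at 2411 ± 300 in EB-treated mice at 24 h, against 1128 ± 306 in vehicle-treated mice (SD, n = 3 each). The 5′ probe set was at 2491 ± 284 in EB-treated mice at 24 h, against 1430 ± 490 in vehicle-treated mice. The middle probe set was at 1225 ± 130 in EB-treated mice, against 443 ± 99.7 in vehicle-treated mice. At 6 h the 3′ probe set was at 2009 ± 396 in EB-treated mice and 2146 ± 42.2 in vehicle-treated mice. The 3′ over 5′ ratio of Gapdh at 24 h was 0.691 ± 0.0287 in EB-treated mice and 0.740 ± 0.0256 in vehicle-treated mice. Their part in the collagen values was not tested.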

How the data were processed

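Whole hypothalami of 30 mice were measured, 1 mouse per Mouse Genome 430 2.0 array. The authors deposited 1 intensity per probe set and array (MAS5 per the submitters' notes, version not given in the sources used here). Array medians were 28.0 to 66.9, with all 12 h arrays at 52.9 or more and all others at 44.1 or less. Here each array was scaled to their mean (41.3), signals under 1 were set to 1, and log2 was taken. The 64 control probe sets and the dimmest 40% (mean signal up to 21.9) were left out, which kept 27022 of 45037. Genes were named through the platform annotation table and 0 collagen symbols changed when updated. Groups were fitted together with limma 3.58.1 (trend on, R 4.3.3) and multiple testing was handled by Benjamini-Hochberg adjustment over all kept probe sets. Probe sets of different genes were not compared in level. In simulated data for the 24 h contrast over 27022 probe sets, changes of 1.5 times were recovered at 48%, 2 times at 78%, and both 3 and 4 times at 98%. The simulated spread was independent between probe sets and equal in all groups, and the changed probe sets were drawn at random. These rates may thus not hold for Col1a1, Col1a2 and Col3a1, whose standard errors were 0.41 to 0.47. With 3 mice a group, an exact test cannot go below p = 0.1.

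Every collagen gene could be named, with values per array for those that passed and for a fixed set of chains. The collagen genes, chain classes, marker lists and pathway list were chosen with earlier results of these data known. Alternatives were scaling, floor, offset, filter, trend, array weights, a replicate block, the 6 arrays of a time alone, the methods' test, the ratio of means, probe set choice and leaving out each array.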

Additional observations from a re-analysis of the deposited data

Results flagged for a closer look

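The EB effect on 4 collagen genes differed between the 5 times by the F test of the limma fit. At 24 h their log2 fold changes were −2.75 for Col3a1, −2.33 for Col1a2, −1.47 for Col6a2 and −1.45 for Col6a1, whereas at 12 h they were 0.45, 0.59, 0.48 and 0.45. The adjusted p-values of the difference between times were 0.0421 to 0.0471 and did not hold in most runs that left out 1 array. The dimmer probe sets of Col1a2, Col3a1 and Col6a2 above the limit did not pass.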

How the results depend on the processing

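At 24 h the count of 6 collagen genes that were lower was 5 to 8 under the other scalings, floors, filters and fits, 7 when all probe sets of the genes were used, and 5 by the ratio of means. The methods' test, two-way analysis of variance with Bonferroni correction over the 5 times, gave 0 at 24 h, and 0 with Benjamini-Hochberg adjustment across probe sets. With its Bonferroni correction alone it gave 1 gene at 1 h and 3 at 12 h. Leaving out 1 array gave 3 to 7 at 24 h (3 without EB replicate 1), 0 to 1 for the average over times (Col3a1, without EB replicate 3 at 24 h) and 0 to 6 for the difference between times. Over time, EB-treated mice gave 14 to 19 and vehicle-treated mice 4 to 9. Col1a2, Col3a1 and Col6a1 passed in 6 of 6 such runs at 24 h. Array weights added Col5a1 (adjusted p = 0.0271) and Col5a2 (0.0423), and Col8a1 was lost without scaling (0.199), without the filter (0.0666) and without the trend (0.0587).

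For the difference between times, the 4 calls became 2 without scaling, 2 with log2 of signal plus 16, and 0 with quantile normalization, without the filter and without the trend. Replicate numbers were not treated as pairs in the main fit. The deviations of same-numbered arrays correlated at −0.13 to 0.09, which cannot show whether the mice were matched. With the replicate block, the 24 h count stayed at 6 and the difference between times gave 0. Without scaling, the median of all probe sets at 24 h moved to 0.22, with 74 lower and 120 higher calls in place of 592 and 159. The basement membrane median was then −0.054 and the fibrillar median −0.23. The changes over time then reached 34 genes in EB-treated and 35 in vehicle-treated mice. In vehicle-treated mice the count over time was 3 without the filter and 16 with array weights. When 1 array was left out, the fibrillar median was −0.53 to −0.38 and the basement membrane median −0.33 to −0.25.

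The count of 5 pathway genes was 3 without scaling, 3 with a filter of 60%, 2 with the 6 arrays alone, 0 and 0 by the methods' test and 3 by the ratio of means, and 2 to 6 when 1 array was left out. The log2 fold change of Col15a1 turned to 0.22 without scaling, and lay between −0.15 and 0.12 when 1 array was left out, with 0.08 without EB replicate 1, 0.01 without EB replicate 3 and 0.12 without vehicle replicate 1. The cause of these changes was not tested.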
